A study of Homo sapiens with 6 samples.

Results

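The tubulin isotypes described here are 10 genes that encode the alpha and beta subunits of microtubules. The 4 alpha genes are TUBA1A, TUBA1B, TUBA1C and TUBA4A, and the 6 beta genes are TUBB, TUBB2A, TUBB2B, TUBB3, TUBB4B and TUBB6. They were taken by gene symbol from a count table of 19470 genes, and the list was chosen with earlier results of these data known. Their RNA was measured by RNA-seq in HCCC9810 cells, an established human cholangiocarcinoma (CCA) cell line labelled wild type. The ILL group received 20 μM isolinderalactone (ILL), a natural sesquiterpene lactone, for 24 h, and the control group received the DMSO vehicle for 24 h. Each group held 3 libraries, with 34282764 to 37758569 counted reads per library. Both groups are a single cell line in bulk culture, so fewer cells of a kind and less RNA per cell cannot be told apart. The sources used here do not say whether the libraries came from separate cultures, and the p-values therefore measure only the spread between these libraries, which may be technical.

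Microtubules are polymers of alpha and beta tubulin dimers that carry cargo in interphase cells and build the spindle in mitosis. Cells make several isotypes of each subunit from separate genes, and the isotypes differ mainly in their carboxy-terminal tails. Newly made tubulin is folded by the prefoldin and CCT chaperones and paired by tubulin cofactors. Excess free tubulin leads to decay of tubulin mRNA on the ribosome, a feedback called autoregulation, in which TTC5 reads the first residues of the nascent chain and recruits SCAPER and the CCR4-NOT deadenylase.

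The coding starts of the 10 genes are shown because autoregulation acts through them. Each sequence was copied from the GENCODE release 29 transcripts (GRCh38), 5′ to 3′, and the capitals mark the first 4 codons.
TUBA1A: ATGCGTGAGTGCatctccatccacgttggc
TUBA1B: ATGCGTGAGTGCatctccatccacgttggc
TUBA1C: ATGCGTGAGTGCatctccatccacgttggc
TUBA4A: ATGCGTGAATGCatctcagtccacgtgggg
TUBB: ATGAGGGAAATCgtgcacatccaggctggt
TUBB4B: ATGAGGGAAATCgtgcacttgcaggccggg
TUBB3: ATGAGGGAGATCgtgcacatccaggccggc
TUBB6: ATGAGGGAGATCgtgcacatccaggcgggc
TUBB2A: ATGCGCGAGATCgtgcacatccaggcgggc
TUBB2B: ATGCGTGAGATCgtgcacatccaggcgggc
The alpha genes used 2 different openings and the beta genes 4. When translated, these gave 1 set of residues for all 4 alpha genes and 1 set for all 6 beta genes. TUBA1A, TUBA1B and TUBA1C shared a single opening, TUBB shared its opening with TUBB4B, and TUBB3 shared its opening with TUBB6.

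The isotypes responded in opposite directions to ILL. TUBA1B, TUBA4A, TUBB, TUBA1C and TUBB4B each fell, by between 2.63-fold for TUBB4B and 4.15-fold for TUBA1B. TUBA1A rose 1.96-fold and TUBB2A 1.29-fold. TUBB3 was 1.15-fold higher, and its adjusted p did not hold without control replicate 1. TUBB6 fell 1.16-fold, and TUBB2B gave no detectable change. These values come from edgeR's quasi-likelihood test with TMM normalization and Benjamini-Hochberg adjustment over 13066 tested genes, and a differentially expressed gene (DEG) had an adjusted p under 0.05 and a fold change over 2 or under 0.5.

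All 10 isotypes passed the filter on low counts. Of these, 5 were DEGs lower with ILL and 0 were DEGs higher with ILL. Among all tested genes, 23.9% were DEGs, 11.4% being lower and 12.5% higher with ILL. The DEGs comprised 3 of the 4 alpha genes and 2 of the 6 beta genes. On the adjusted p alone, 6 isotypes were lower and 3 were higher, TUBB3 among the higher, where 73.1% of tested genes passed, 36.9% lower and 36.2% higher. The CPM values of the groups, counts scaled to the normalised library size, did not overlap for 9 isotypes, 6 lower and 3 higher, against 75.4% of tested genes, 38% lower and 37.5% higher. The share of isotypes that were DEGs lower with ILL was thus above the background, whereas the counts on the adjusted p alone and on overlap lay closer to it. The median log2 fold change was −0.80 over the 10 isotypes and −0.00117 over all tested genes.

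**Figure D1:**
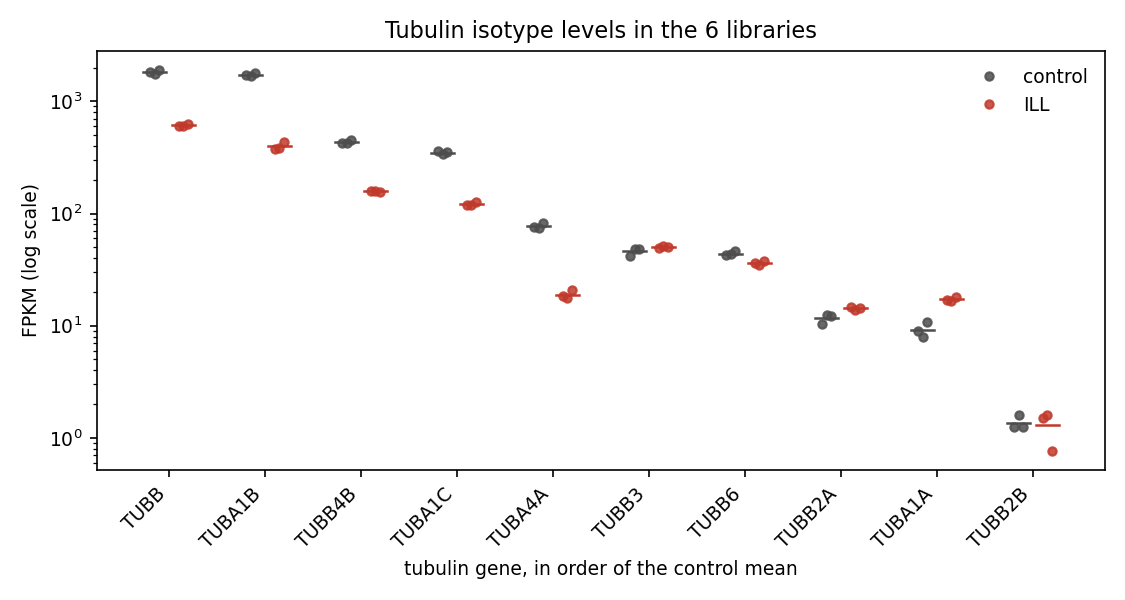
FPKM (log axis) of the 10 tubulin isotypes in each library, ordered by the control mean, with points for the 3 control and 3 ILL libraries and short lines for group means. The ILL points of the 5 genes on the left, TUBB, TUBA1B, TUBB4B, TUBA1C and TUBA4A, all lie below the control points, while those of TUBA1A, TUBB2A and TUBB3 lie above.

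Among alpha genes, TUBA1B encodes the main alpha subunit of most dividing cells. Levels are given in FPKM, the read count scaled to gene length and library total, and libraries in order of replicate number. TUBA1B stood at FPKM levels of 1719, 1688 and 1772 in the 3 control libraries and 373, 382 and 433 in the 3 ILL libraries. Every ILL library lay far below every control library, with ILL replicate 3 the highest of its group. The log2 fold change of TUBA1B was −2.05 ± 0.05 (SE, 95% interval −2.17 to −1.94, adjusted p = 1.71e-20 by edgeR).

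TUBA1C, a second widely expressed alpha gene, lay at FPKM levels of 358, 339 and 351 in the 3 control libraries and 119, 120 and 126 in the 3 ILL libraries. The groups did not overlap, and the libraries of each group lay close together. Its log2 fold change was −1.45 ± 0.05 (SE, 95% interval −1.55 to −1.35, adjusted p = 1.29e-18), and this interval did not meet that of TUBA1B.

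TUBA4A, an alpha gene known from platelets and muscle, had FPKM levels of 75.3, 74.4 and 82.5 in the 3 control libraries and 18.5, 17.6 and 20.7 in the 3 ILL libraries. All 3 ILL libraries were below all 3 control libraries. Its log2 fold change of −1.96 ± 0.06 (SE, 95% interval −2.10 to −1.83, adjusted p = 1.01e-18) had an interval that overlapped that of TUBA1B.

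TUBA1A, an alpha gene best known from developing neurons, moved the other way. Its FPKM was 8.96, 7.92 and 10.8 in the 3 control libraries and 16.9, 16.7 and 18.2 in the 3 ILL libraries. Each ILL library exceeded each control library, and control replicate 3 was the highest of its group. The log2 fold change was 0.97 ± 0.09 (SE, 95% interval 0.78 to 1.16, adjusted p = 1.09e-09), so that TUBA1A passed the adjusted p and stopped just short of the fold cutoff. Without control replicate 3 it was 1.10 with an adjusted p of 6.19e-10, and TUBA1A counted as a DEG.

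Among beta genes, TUBB encodes the beta subunit found in most tissues and had the highest level of the 10 isotypes. Its FPKM was 1807, 1754 and 1909 in the 3 control libraries and 606, 605 and 626 in the 3 ILL libraries. The groups lay far apart, and the ILL libraries were close to each other. The log2 fold change of TUBB was −1.50 ± 0.05 (SE, 95% interval −1.60 to −1.41, adjusted p = 2.68e-19).

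TUBB4B, a beta gene that is also used in cilia and flagella, had FPKM levels of 427, 421 and 455 in the 3 control libraries and 159, 159 and 155 in the 3 ILL libraries. Again no ILL library reached a control library. Its log2 fold change of −1.39 ± 0.05 (SE, 95% interval −1.50 to −1.29, adjusted p = 5.91e-18) had an interval that overlapped that of TUBB.

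TUBB3, a beta gene of neurons that is also made by many carcinomas, stood at FPKM levels of 41.7, 48.4 and 48.3 in the 3 control libraries and 49.6, 51.7 and 50.4 in the 3 ILL libraries. The groups did not overlap, but the gap between them was smaller than the distance of control replicate 1 from the other control libraries. The log2 fold change was 0.20 ± 0.06 (SE, adjusted p = 0.00547). Without control replicate 1 the value for TUBB3 was 0.13 (adjusted p = 0.0872). With scaling by library size only the adjusted p was 0.0538, and in the limma fits on FPKM it lay between 0.0609 and 0.117.

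TUBB2A, a beta gene abundant in brain, had FPKM levels of 10.4, 12.4 and 12.1 in the 3 control libraries and 14.8, 13.7 and 14.5 in the 3 ILL libraries. All ILL libraries were higher than all control libraries. The log2 fold change was 0.36 ± 0.09 (SE, adjusted p = 0.000783).

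TUBB6 encodes a divergent beta subunit that occurs at low level in many tissues. Its FPKM was 42.4, 43.2 and 46.1 in the 3 control libraries and 36.1, 34.9 and 37.4 in the 3 ILL libraries. The ILL libraries were all lower, and the log2 fold change was −0.21 ± 0.06 (SE, adjusted p = 0.00147), a much smaller step than those of TUBB and TUBB4B.

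TUBB2B, a near copy of TUBB2A known for its part in cortical development, was the least abundant isotype. It had 90, 105 and 83 counts in the 3 control libraries and 103, 110 and 53 counts in the 3 ILL libraries. The groups overlapped, with ILL replicate 3 below and ILL replicates 1 and 2 within or above the control range. The fitted log2 fold change was 0.00064 ± 0.29 (SE, 95% interval −0.60 to 0.60, adjusted p = 0.999), so that a change within that interval was not detectable at this depth.

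**Figure D2:**
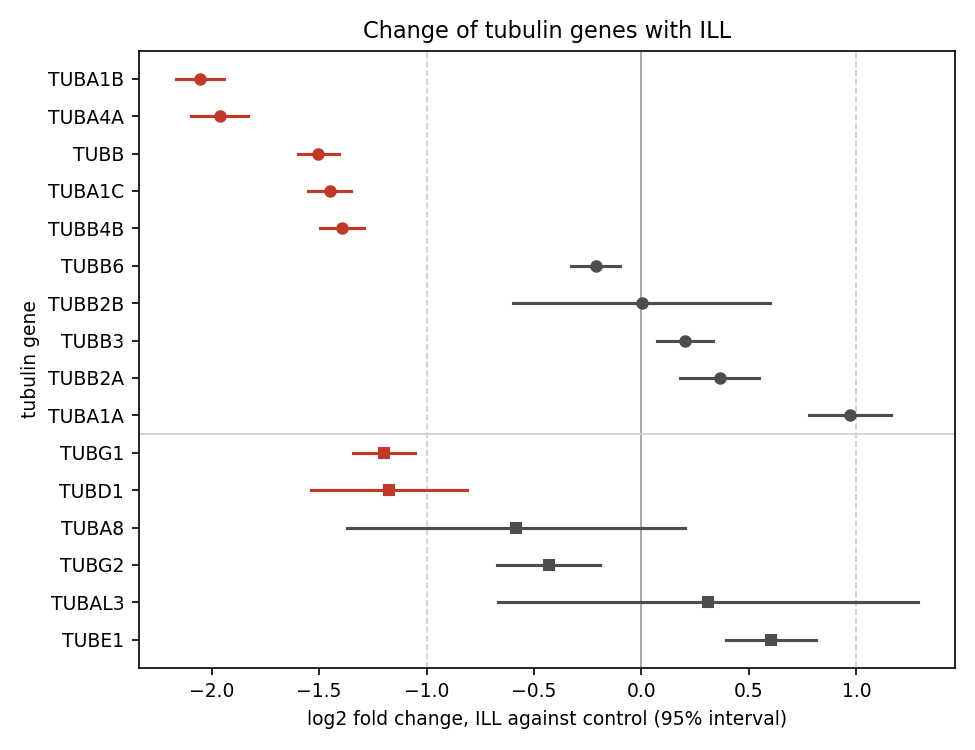
Log2 fold change, ILL against control, with its 95% interval for the 10 tubulin isotypes (circles) and 6 other tested tubulin genes (squares). Red marks DEGs and dashed lines mark the fold cutoff. TUBA1B and TUBA4A lie near −2, TUBB, TUBA1C and TUBB4B near −1.5, and TUBA1A at 0.97.

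The 5 DEGs were also the 5 isotypes with the highest levels in control cells. Their lowest control mean was the FPKM of 77.4 for TUBA4A, and the highest control mean of the other isotypes was the FPKM of 46.1 for TUBB3. In order of level, control cells held TUBB at a FPKM of 1823 ± 78.5 (SD, n = 3), TUBA1B at 1727 ± 42.8, TUBB4B at 434 ± 18.0 and TUBA1C at 349 ± 9.52. TUBB and TUBA1B overlapped between libraries, as did TUBB3 with TUBB6 and TUBB2A with TUBA1A further down. The gene length behind the FPKM was 3128 bases for TUBB6 and 2693 for TUBA4A, against main transcripts of 2064 and 2162 bases. For TUBA1B both lengths were 1627 bases. The order of levels, the shares within a family and the alpha to beta ratio depend on these lengths. By mean FPKM, TUBB ranked 29 and TUBA1B ranked 31 of the 19470 genes in control cells, and they ranked 99 and 158 with ILL.

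With ILL the range of levels was narrower, and the order changed in its lower part. TUBB stood at a FPKM of 612 ± 11.96 (SD, n = 3), TUBA1B at 396 ± 32.4, TUBB4B at 158 ± 2.53 and TUBA1C at 122 ± 4.01. TUBB and TUBA1B no longer overlapped. TUBA4A fell from the fifth level, a FPKM of 77.4 ± 4.41, to 18.9 ± 1.59, which was below TUBB3 at 50.5 ± 1.05 and TUBB6 at 36.1 ± 1.28. TUBA4A then overlapped with TUBA1A at 17.3 ± 0.781, whereas in control cells their levels lay well apart. TUBA1A moved from rank 5269 to rank 3364 of all genes by mean FPKM, and TUBA4A from rank 965 to rank 3151.

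The summed levels fell in both families. The FPKM of the 4 alpha genes added up to 2162 ± 53.8 in control and 554 ± 38.6 with ILL (SD, n = 3), or 25.6% of control. The FPKM of the 6 beta genes added up to 2361 ± 98.8 in control and 872 ± 10.1 with ILL (SD, n = 3), or 37.0% of control. Neither sum overlapped between groups. The ratio of the alpha to the beta sum was 0.928, 0.925 and 0.897 in the 3 control libraries and 0.609, 0.619 and 0.677 in the 3 ILL libraries. All ILL ratios were lower than all control ratios. The 10 isotypes took 0.996% ± 0.0342 of all counted reads in control libraries and 0.325% ± 0.0102 in ILL libraries (SD, n = 3). These sums compare mRNA and not protein, which was not analysed here.

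**Figure D3:**
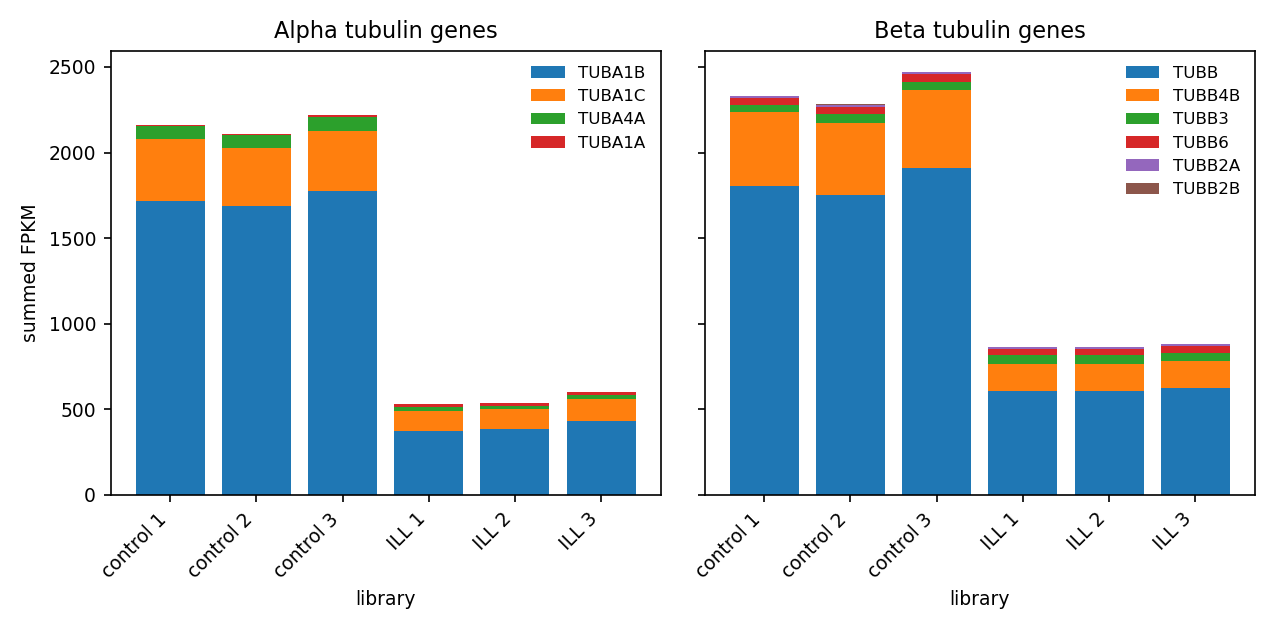
Summed FPKM of the 4 alpha genes (left) and the 6 beta genes (right) in each library, as bars stacked by gene from 0. The alpha sum lies between 2109 and 2217 in control libraries and between 528 and 599 with ILL, and the beta sum between 2281 and 2471 in control and between 866 and 884 with ILL.

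The make-up of each family shifted away from its main gene. TUBA1B made up 79.8% ± 0.257 of the alpha FPKM in control and 71.5% ± 0.863 with ILL (SD, n = 3). TUBA1C took up most of the difference, going from 16.1% ± 0.366 to 22.0% ± 0.786. The share of TUBA1A went from 0.426% ± 0.0578 to 3.12% ± 0.0867, and the share of TUBA4A overlapped between groups at 3.58% ± 0.126 and 3.41% ± 0.112.

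In the beta family, TUBB made up 77.2% ± 0.330 of the FPKM in control and 70.2% ± 0.553 with ILL (SD, n = 3). TUBB4B held its share, with overlapping values of 18.4% ± 0.0700 and 18.1% ± 0.496. The minor genes gained share. TUBB3 went from 1.95% ± 0.166 to 5.79% ± 0.145, TUBB6 from 1.86% ± 0.0376 to 4.14% ± 0.106, TUBB2A from 0.495% ± 0.0489 to 1.64% ± 0.0619, and TUBB2B from 0.0578% ± 0.0105 to 0.149% ± 0.0539. None of these 4 shares overlapped between groups, although TUBB6 itself fell and TUBB2B did not change detectably, since the sum they are taken from fell to 37.0%.

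Ratios within a library do not depend on its scaling. The FPKM of TUBA1A was 0.534% ± 0.0722 of that of TUBA1B in control and 4.37% ± 0.173 with ILL (SD, n = 3), an 8.22-fold increase of the ratio. The ratio to TUBB rose 3.66-fold for TUBB2A, 3.27-fold for TUBB3, 2.71-fold for TUBB2B and 2.45-fold for TUBB6, on the scale of FPKM ratios. The ratio of TUBB4B to TUBB rose only 1.08-fold, from 23.8% ± 0.192 to 25.7% ± 0.906, and that of TUBA4A to TUBA1B overlapped at 4.48% ± 0.150 and 4.78% ± 0.170. By edgeR, the reference genes TUBA1B and TUBB themselves fell 4.15-fold and 2.84-fold. The ratio to TUBB thus rose even for TUBB2B, which did not change detectably, and for TUBB6, which fell. In all, 8 ratios to TUBA1B or TUBB were compared and 7 did not overlap between groups. The exact two-sided permutation test gave p = 0.1 for each of these 7 (adjusted p = 0.114). With 3 against 3 libraries this exact permutation test cannot give p under 0.1. It could therefore not pass 0.05 and decides nothing about these ratios. The same exact two-sided permutation test gave p = 0.2 for TUBA4A to TUBA1B.

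Several of these genes are near copies of each other, which bears on how their reads could be counted. In the coding sequences of the GENCODE transcripts, identity was 84.4% to 97.2% between alpha genes, 80.9% to 98.2% between beta genes and 52.2% to 53.8% between the families. TUBA1A and TUBA1B were the closest alpha pair at 97.2%, and TUBB2A and TUBB2B the closest beta pair at 98.2%. Both pairs are neighbours on the genome (GRCh38). TUBA1B lies on the minus strand at chr12:49127782-49131397 and TUBA1A, also on the minus strand, at chr12:49184796-49189324, 53.4 kb away. TUBA1C lies on the plus strand at chr12:49188736-49274603 and overlaps the annotated TUBA1A gene in part. TUBB2A at chr6:3153669-3157526 and TUBB2B at chr6:3224261-3231730 lie on the minus strand 66.7 kb apart. TUBB lies elsewhere on that chromosome, at chr6:30720201-30725426 on the plus strand. TUBA4A (chr2:219249711-219278170, minus strand), TUBB3 (chr16:89921392-89938761, plus strand), TUBB4B (chr9:137241213-137243707, plus strand) and TUBB6 (chr18:12307669-12344320, plus strand) share a chromosome with no other of the 10 isotypes. The main transcript of each of the 10 genes has 4 exons.

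Cut into stretches of 100 bases, 37.2% of the TUBA1B transcript was found letter for letter in another gene's transcripts, against 18.3% for TUBA1A, 11.5% for TUBA1C and 1.84% for TUBA4A. For the beta genes the shares were 56.4% for TUBB2A, 46.2% for TUBB2B, 5.10% for TUBB, 2.86% for TUBB4B and 0 for TUBB6. The 89.0% of TUBB3 came from an annotated read-through gene at the same locus, and 5.15% of TUBB3 was shared with other isotypes. At 100 bases the 5 DEGs therefore had more unshared than shared sequence, TUBA1B the least so. At 50 bases the shared part was 62.7% for TUBA1B, 25.1% for TUBA1C, 18.2% for TUBB, 9.89% for TUBB4B and 5.25% for TUBA4A. Reads of TUBA1B and TUBA1A, of TUBB2A and TUBB2B, and of TUBB3 and its read-through gene could be split between partners. The read length, the strand setting and the treatment of reads that match several genes are not given in the sources used here, and the levels of TUBB3, TUBA1A, TUBA1B, TUBA1C, TUBB2A and TUBB2B are uncertain to that extent. The part of shared reads in the differences was not tested.

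**Figure D4:**
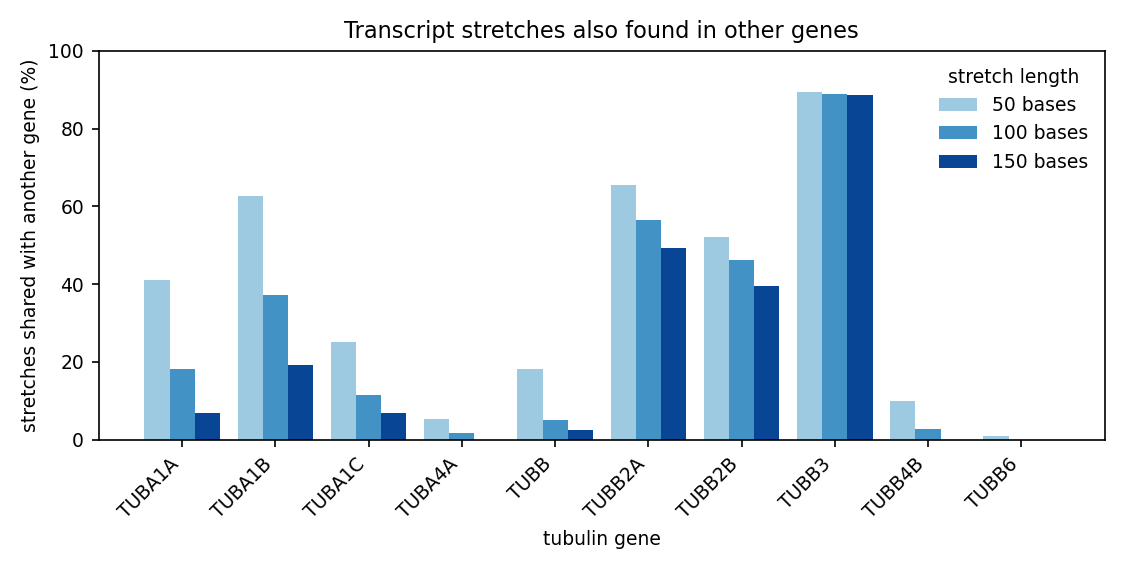
Share of each isotype's main transcript, cut into overlapping stretches of 50, 100 or 150 bases, that also occurs in a transcript of another gene (bars from 0, in percent). At 150 bases TUBA4A, TUBB4B and TUBB6 share none, TUBA1B shares 19.1%, and TUBB2A and TUBB2B share 49.4% and 39.4%.

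The promoters of the isotypes were searched because 5 genes moved together. The windows are the RefSeq promoter entries (GRCh38.p14), 15 for the 10 genes, and the letters searched were CCAAT, the box bound by NF-Y, on either strand. CCAAT was found in 9 of the 15 promoters, belonging to 7 isotypes, and in 34.6% of all 35093 promoters. Among these, 2 of the TUBA1C promoters overlap and hold the same CCAAT box. Of the 5 DEGs it was found in TUBB, TUBB4B and TUBA1C, and not in TUBA1B or TUBA4A. Of the other isotypes it was found in TUBA1A, TUBB2B, TUBB3 and TUBB6. The sequences show an example from a gene that fell and from a gene that rose, on the strand of the gene, with the motif in capitals.
TUBB: ctggctcagaggCCAATggacgcctggtac
TUBA1C: cttttgaatccgCCAATcagcgccgcgcgc
TUBA1A: acgtcgcttgcaCCAATcaccagtctcctg
The cell cycle homology region, searched as TTTGAA or TTCGAA on either strand, was found in 5 of the 15 promoters and in 16.4% of all promoters. The 5 promoters belong to only 3 of the 10 isotypes, TUBB4B, TUBA1C and TUBB3. Most of them are entries of TUBA1C, and in 1 of these the only match lies past the annotated start. TUBB4B and TUBA1C fell, and TUBB3 had the small change given above. Matches are letters in a window and not shown to be bound.

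Of 12 other tubulin genes, 6 passed the filter and 2 of these were DEGs, both lower, or 33.3% against 11.4% of all tested genes. TUBG1, the gamma tubulin that nucleates microtubules, fell 2.29-fold (log2 fold change −1.20 ± 0.07, SE, adjusted p = 7.68e-14). TUBD1, the centriolar delta tubulin, fell 2.26-fold (log2 fold change −1.17 ± 0.18, SE, adjusted p = 1.81e-06). The epsilon tubulin TUBE1 rose 1.52-fold (adjusted p = 1.13e-05), and TUBG2 fell 1.35-fold (adjusted p = 0.00193). The log2 fold changes of the rare alpha genes TUBA8 and TUBAL3 were −0.58 ± 0.38 and 0.31 ± 0.47 (SE, adjusted p = 0.172 and 0.568).

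Of 14 CCT chaperonin and prefoldin genes, 13 passed the adjusted p, all lower, against 36.9% of tested genes. Only 1 was a DEG lower with ILL, or 7.14% against 11.4% of tested genes, with a median log2 fold change of −0.74 over the 14 genes. The DEG was CCT2, a subunit of the chaperonin ring, which fell 2.20-fold (adjusted p = 1.00e-15). Of 7 tubulin cofactor genes, 0 were DEGs, 3 passed the adjusted p lower and 1 higher, and 3 did not pass. Over all tested genes, 36.9% passed lower and 36.2% higher. The most abundant cofactor gene, TBCB, fell 1.30-fold (adjusted p = 9.05e-07).

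The 13 genes of tubulin mRNA autoregulation moved in both directions, with 0 DEGs and a median log2 fold change of −0.04. Of these, 4 passed the adjusted p higher, 4 lower and 5 did not pass. Over all tested genes, 36.2% passed higher and 36.9% lower, and 23.9% were DEGs. The largest falls, named after their values were seen, were those of the CCR4-NOT subunits CNOT9 and CNOT10, with log2 fold changes of −0.72 and −0.60 (adjusted p = 6.36e-11 and 1.01e-06). CNOT1, the scaffold of CCR4-NOT, had a log2 fold change of −0.07 ± 0.05 (SE, adjusted p = 0.229). TTC5 and SCAPER, named in the same way, had log2 fold changes of −0.04 ± 0.10 and 0.17 ± 0.15 (SE, adjusted p = 0.746 and 0.303). These are mRNA levels of the factors and do not measure the feedback itself.

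Of 20 tested tubulin modifying enzymes, 2 were DEGs higher and 2 lower, with a median log2 fold change near 0.00. The share of DEGs lower with ILL was 10%, close to the 11.4% of all tested genes, and 1 of these DEGs, the low-count AGBL3, was lost in several alternatives. The background for the DEGs higher with ILL was 12.5%, and 1 of these, TTLL7, also had few counts. TTLL4, a glutamylase, fell 2.36-fold (adjusted p = 1.79e-13), and TTLL1, the catalytic subunit of a polyglutamylase, rose 3.86-fold from a low level (adjusted p = 5.94e-08). Tubulin tyrosine ligase (TTL), which adds tyrosine to alpha tubulin, was named after its value was seen. It had a log2 fold change of −0.71 ± 0.06 (SE, adjusted p = 3.10e-10).

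Genes that take up free tubulin or act on the polymer moved in several ways. Of 8 tested stathmins and severing enzymes, 3 were DEGs, all lower, or 37.5% against 11.4% of all tested genes. STMN1, which sequesters tubulin dimers, fell 4.05-fold (adjusted p = 3.19e-20), close to the fold of TUBA1B, and the severing enzyme FIGN fell 3.29-fold (adjusted p = 9.45e-13). Of 31 tested interphase microtubule-associated proteins, 7 were DEGs higher and 2 lower, the latter being 6.45% against 11.4% of all tested genes. The background for the higher DEGs was 12.5%. MAP1B, a stabilizer first described in neurons, rose 3.90-fold (adjusted p = 9.01e-19), and TPPP, which bundles microtubules, rose 4.29-fold at 12 to 71 counts per library (adjusted p = 0.000133). The doublecortin-like kinase DCLK1 fell 10.7-fold (adjusted p = 4.75e-11), with 179 to 236 counts per control library and 16 to 19 per ILL library. The log2 fold change of DCLK1 lay between −3.49 and −0.44 in the alternatives. MAP6D1 fell 2.45-fold (adjusted p = 7.96e-06).

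The spindle list had the lowest median. Of 18 mitotic spindle microtubule-associated proteins, 15 were DEGs lower, or 83.3% against 11.4% of all tested genes. Only 1 was a DEG higher, where the background was 12.5%. The median log2 fold change was −2.85 against −0.80 for the isotypes. PSRC1 fell 12.4-fold (adjusted p = 2.27e-17) and FAM83D fell 11.0-fold (adjusted p = 6.50e-23), while TACC2 rose 2.16-fold (adjusted p = 6.30e-11). Of 20 nucleation genes, 9 were DEGs, all lower, with a median log2 fold change of −0.81, about that of the isotypes. The augmin subunits HAUS8 and HAUS1 fell 5.96-fold and 3.89-fold (adjusted p = 5.23e-15 and 1.44e-11). The part of the share of dividing cells in the fall of the isotypes was not tested.

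**Figure D5:**
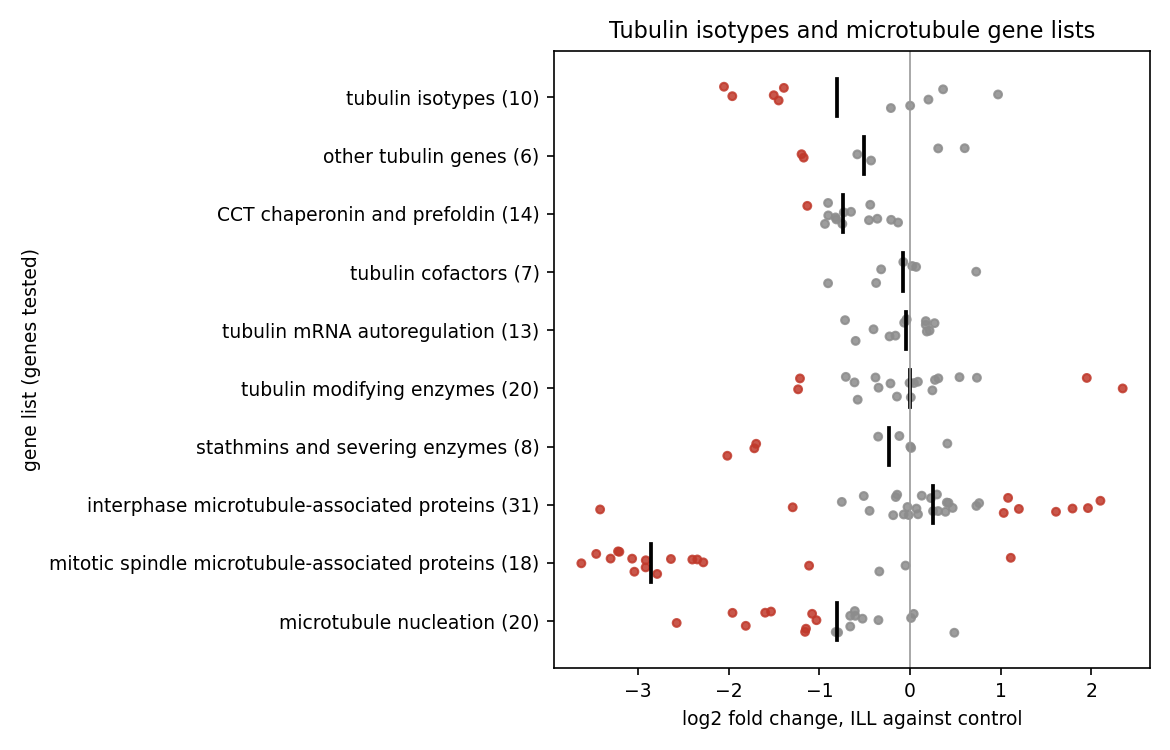
Log2 fold change, ILL against control, of each tested gene in the tubulin isotype list and 9 lists of tubulin and microtubule genes, with the number tested in parentheses. Points are genes, red marks DEGs and black bars mark medians. The isotypes split into 5 genes below −1 and 5 genes between −0.21 and 0.97, the spindle genes lie mostly between −2 and −4, and the CCT chaperonin and prefoldin genes all lie below 0.

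All 8 biliary epithelial markers were detected, and their summed CPM, here scaled to the total count alone, ranged from 9573 to 9764 in control and from 10120 to 10680 in ILL libraries. The 12 markers of hepatocytes, fibroblasts, endothelial cells and leukocytes summed to between 54.6 and 63.6 CPM in control and between 132.7 and 140.6 with ILL. Of these, 5 had at most 10 counts in every library. Most of the sum was the lysosomal gene CD68, at 37.0 to 41.6 CPM in control and 108.8 to 113.6 with ILL. The hepatocyte gene CYP3A4 was at 0 in every library, whereas ALB had 160 to 541 counts and APOA1 had 21 to 62. The fibroblast gene COL1A1 had 328 to 583 counts. Of the 7 markers tested, 4 passed the adjusted p higher with ILL and 2 of these were DEGs. The shares among tested genes were 36.2% and 12.5%. The part of other cell types in the isotype differences was not tested.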

How the data were processed

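RNA-seq libraries from HCCC9810 cells under ILL or vehicle, 3 per group, were grouped by their labels. The authors deposited raw read counts and FPKM values per gene symbol, without pooling of replicates. Each of the 88055 nonzero FPKM values equals the deposited count divided by a gene length and the library's total count, within 0.1%. The submitters' processing notes name GRCh38 and DESeq2. The aligner, counting program and annotation are not given in the sources used here.

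Counts were filtered with filterByExpr, which left 13066 of 19470 genes, normalized by TMM and tested with edgeR's quasi-likelihood test (edgeR 4.0.16, R 4.3.3) across all genes, with Benjamini-Hochberg adjustment and the cutoffs of the study's methods. The script was tested on simulated data. At 34282764 to 37758569 counts per library, the biological coefficient of variation was 0.0717. Same-group libraries differed beyond counting noise (chi-square per degree of freedom 5.15 to 11.8). FPKM, with no test, served to compare levels between genes. Ratios between isotypes were tested by an exact permutation test that was added after the files were seen.

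The members and lists were chosen with earlier results of these data known. Named genes are the 10 isotypes, the other tested tubulin genes, and from each list at most 2 DEGs at each end of fold change whose groups did not overlap and whose mean reached 1 CPM. In a list without such DEGs it is the gene with the highest mean CPM. TTC5, SCAPER and TTL, and the genes under other observations, were named after their values were seen. Alternatives were scaling by library size alone or by DESeq2's size factors, no count filter, a minimum of 10 counts per library, the Wald test of DESeq2 1.42.0, a block for the replicate number, leaving out single libraries, no fold cutoff, and limma (3.58.1) on log2 of FPKM plus 1 or plus 0.1. Sequences came from GENCODE release 29 and RefSeq. No protein sequences were used here. Some sequences and the result of a marker gene are not reported here.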

Additional observations from a re-analysis of the deposited data

How the results depend on the processing

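The 5 isotypes that were DEGs remained so, all lower, in each of the 16 alternatives. The isotype count was 9 on the adjusted p alone and 6 without control replicate 3, where TUBA1A was a DEG at a log2 fold change of 1.10, and 5 in the others. TUBA1A was not a DEG with any other library left out, where the lowest value was 0.87. TUBB3 passed the adjusted p of 0.05 in the main analysis and not without control replicate 1 (0.0872), with library size only (0.0538) or in the limma fits (0.0609 to 0.117). The log2 fold change of TUBB2B ranged from −0.19 to 0.27 as single libraries were left out. No named gene with a call reversed in these alternatives. Of the 32 genes named by the rule, 19 kept their call in all of them. Without the fold cutoff, every named gene past the adjusted p alone changed its call. In the limma fits, some DEGs besides DCLK1 went under the fold cutoff. Their smallest log2 fold changes there were 0.18 for TPPP, −0.67 for FIGN, 0.69 for TACC2, −0.93 for MAP6D1 and −0.83 for TUBD1. In the fits on counts these were 1.93, −1.65, 1.03, −1.07 and −1.04. The share of TUBA1B in alpha tubulin dropped by 10.3 percentage points by summed counts, which are not per length, against 8.38 by FPKM.

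Without the fold cutoff, 9547 of the 13066 tested genes passed, or 73.1%, against 3120 DEGs. Passing were 4 of 6 other tubulin genes, 13 of 14 CCT chaperonin and prefoldin genes and 4 of 7 cofactor genes. So did 8 of 13 autoregulation genes, 11 of 20 modifying enzymes and 5 of 8 stathmins and severing enzymes. The last 2 lists had 23 of 31 interphase microtubule-associated proteins and 18 of 20 nucleation genes. With limma on log2 of FPKM plus 1, 1591 of 10571 tested genes were called with a filter on mean FPKM and 1609 of 16266 without one. Of other tubulin genes, modifying enzymes and interphase microtubule-associated proteins, 4, 15 and 26 were tested with the filter and 9, 24 and 36 without it. Either way, that scale called 1, 2 and 1 of these, in the same order. The cause was not tested. With FPKM plus 0.1, limma called 2156 of 10571 tested genes. Among these were 2 of 14 CCT chaperonin and prefoldin genes, 2 of 15 modifying enzymes and 3 of 26 interphase microtubule-associated proteins. Scaling by library size only called 2 of 14 CCT chaperonin and prefoldin genes. It moved the split of all DEGs to 1488 higher and 1649 lower, from 1635 and 1485.

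The replicate number as a block gave 3111 DEGs, 1627 higher and 1484 lower, and the same 5 isotypes. Same-numbered libraries had correlations of 0.0107, −0.0218 and −0.0179 between their deviations from the group means. These values show no shared effect of the replicate number, but they cannot tell whether the libraries were paired by design. TUBB2B had the fewest reads of the isotypes, at 53 to 110 counts per library.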

Other observations

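Among the interphase microtubule-associated proteins, 5 further genes were DEGs higher with ILL, named here after their values were seen. The log2 fold changes were 1.79 for MAPT, which encodes tau, 1.61 for MTUS1, 1.2 for MAP2, 1.08 for CLIP2 and 1.03 for MAPRE3, which encodes a plus-end binding protein. The adjusted p-values by edgeR were 0.000582, 6.98e-09, 1.50e-09, 3.52e-11 and 2.23e-07 in that order. MAPT had a low level, with a mean of 0.501 CPM in control and 1.75 with ILL. TTLL7 and AGBL3, a polyglutamylase and a deglutamylase, made up the rest of the DEGs among modifying enzymes, with log2 fold changes of 2.35 and −1.22 (adjusted p = 0.00161 and 0.0360). TTLL7 lay at a mean of 0.165 CPM in control and 0.851 with ILL. With a minimum of 10 counts per library, and in the limma fits, only 1 modifying enzyme was a DEG higher with ILL. The AGBL3 call also rests on few counts. Its adjusted p was 0.0605 with the replicate block, 0.0669 without the count filter, 0.0550 with the Wald test of DESeq2, and between 0.0578 and 0.181 with control replicate 2, control replicate 3 or any single ILL library left out. FIGNL1, the remaining DEG among stathmins and severing enzymes, had a log2 fold change of −1.70 (adjusted p = 4.07e-14).

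Of the other tubulin genes, TUBA3C, TUBA3D and TUBA3E had 0 counts in all 6 libraries. TUBB4A, the brain beta gene, had at most 8 counts per library, TUBB8 at most 4 and TUBB1, the platelet beta gene, at most 1.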
